A study of Mus musculus with 15 samples.

Results

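Hearts of mice given activated protein C (aPC) were compared with hearts of mice given dabigatran, after tying and reopening of a coronary artery. The comparison rests on 4 libraries, aPC-791 and aPC-792 against Dabi-202 and Dabi-204, taken by their labels from a table of 11 libraries. Of the 16658 genes in that table, 13541 reached at least 0 log2 CPM (the log2 of a gene's reads scaled to a common library total) in at least 3 libraries and were tested. The animals were male wild-type C57BL/6 mice aged 8 to 10 weeks. Dabigatran was given at 10 mg/kg for 7 days before surgery, and aPC at 1 mg/kg 30 min before it, so the drug and the length of pretreatment cannot be told apart. Ligation of the left anterior descending artery lasted 90 min and reperfusion 24 h, drug dosing resumed 2 h after surgery, and RNA came from heart tissue holding the infarct and the muscle around it. The other libraries of the table are 2 labelled untreated, 2 from mice given rivaroxaban, an inhibitor of factor Xa, at 3 mg/kg for 7 days, and 3 labelled sham. Surgery is described in the labels in common for every sample, and the sham and untreated groups are used under the names given there. A further 4 samples of the 15 in the labels, 1 of them labelled aPC and 1 dabigatran, were not analysed here. Since a library is known only by its number, p-values measure only the spread between these libraries.

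Protein C is a plasma zymogen that is cut to its active form by thrombin held on thrombomodulin, and the endothelial protein C receptor speeds this step. Activated protein C degrades the clotting cofactors Va and VIIIa, and it signals to cells through the endothelial receptor and the protease-activated receptor PAR1. Dabigatran blocks the active site of thrombin, which cuts fibrinogen and also cuts PAR1 on platelets, endothelium and other cells. Reopening of a blocked coronary artery is followed within a day by the entry of neutrophils and then monocytes, by stress gene expression in surviving muscle and by the start of matrix repair.

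In these libraries the hearts given dabigatran held more RNA of many neutrophil, cytokine, immediate-early, matrix and ribosome biogenesis genes than the hearts given aPC. Hearts given aPC held more RNA of most nuclear-encoded genes for fatty acid oxidation, the tricarboxylic acid cycle and the respiratory chain and of some ion channel genes. Of the 13541 tested genes 2913 were called, meaning an adjusted p under 0.05 in limma, which is 21.5%. Of these, 1247 (9.21% of the tested genes) were higher and 1666 (12.3%) were lower in aPC. Both aPC libraries lay above both dabigatran libraries in 29.4% of the tested genes and below both in 36.1%, and in all 2913 called genes the groups did not overlap. Differences are given in log2 CPM, aPC minus dabigatran, ± the standard error of the fit, with 2-sided p-values adjusted by Benjamini-Hochberg over the tested genes, and values of the 4 libraries are given in the order aPC-791, aPC-792, Dabi-202, Dabi-204. The large differences were mostly in 1 direction: 936 called genes were lower in aPC by at least 1 on the log2 scale and 310 were higher, and at a difference of at least 2 these numbers were 243 and 18.

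**Figure D1:**
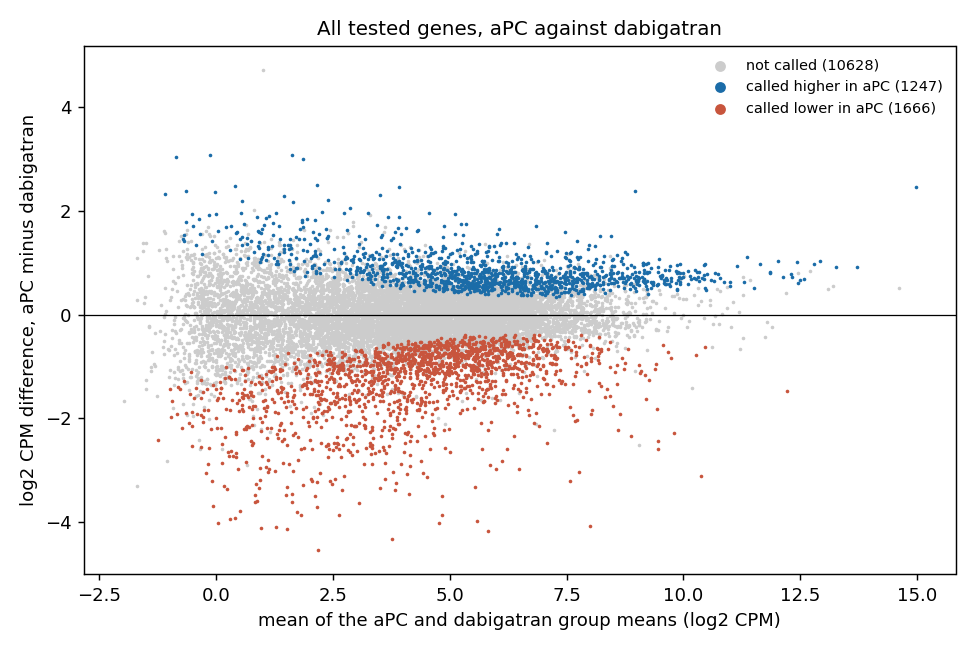
Each point is 1 of the 13541 tested genes, with the mean of the aPC and dabigatran group means on the x axis (log2 CPM) and the log2 CPM difference, aPC minus dabigatran, on the y axis. The 1666 genes called lower in aPC reach further from 0 than the 1247 called higher.

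The share of calls in each direction moved with the scaling of the libraries. Of the called genes 57.2% were lower in aPC as deposited, 39.4% after centring each library on its median, 46.5% after quantile normalization and 78.1% after scaling to totals without Gm42418, Gm26917, AY036118 and Lars2, the genes held here as overlapping ribosomal RNA. The median difference over all tested genes was -0.05 as deposited, 0.08 after centring and -0.21 with those totals, so the sign of a small difference depends on the scaling. The number of calls also moved with single libraries. It was 1249 without aPC-791, 871 without aPC-792, 1160 without Dabi-202, and 4703 and 4714 without either untreated library. All groups share 1 estimate of the spread. A fit that leaves out 1 of the 4 libraries assumes that the lone library of its group varies like the other groups. Of the 2913 called genes 99.97% kept their sign under quantile normalization and 100% did under each other scaling named here. Leaving out 1 library could not change a sign, since the groups did not overlap in any called gene. Those fits therefore do not test the signs.

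The libraries held from 26203566 to 36135006 reads on listed genes, 28254641 and 26629925 of them in the aPC pair and 26203566 and 36135006 in the dabigatran pair. Across tested genes the aPC libraries had a Spearman correlation of 0.99 with each other and the dabigatran libraries 0.982, while the correlation between an aPC and a dabigatran library ran from 0.934 to 0.962. Genes of heart muscle identity were abundant throughout, with a summed level from 15.68 to 16.56 log2 CPM over the 11 libraries. The aPC pair was set apart by Gm42418 (ENSMUSG00000098178, chr17:39846958-39848788, + strand), a noncoding RNA gene that lies over ribosomal RNA sequence and opposite AY036118 and CT010467.1. It took 6.78% and 6.73% of reads with aPC, against 2.09% and 0.997% with dabigatran and from 1.21% to 1.77% in the other 7 libraries. Its level was 16.26 and 16.16 log2 CPM with aPC and 14.34 and 13.14 with dabigatran, a difference of 2.47 ± 0.34 (adjusted p = 0.00179). Gnb1l followed the same pattern, at 10.15 and 10.18 with aPC and 8.29 and 7.25 with dabigatran, with a difference of 2.39 ± 0.28. Gm26917, another ribosomal RNA overlapping gene, went the other way, at 4.76 and 4.66 with aPC and 6.94 and 6.91 with dabigatran, a difference of -2.22 ± 0.17. Lars2 was higher by 0.98 ± 0.28 (adjusted p = 0.0332), a call lost without aPC-791, Dabi-202 or Dabi-204 (adjusted p from 0.0619 to 0.218). The part of this imbalance in the results that follow was not tested beyond the rescaling to totals without these genes, whose counts are given beside the results they move.

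**Figure D2:**
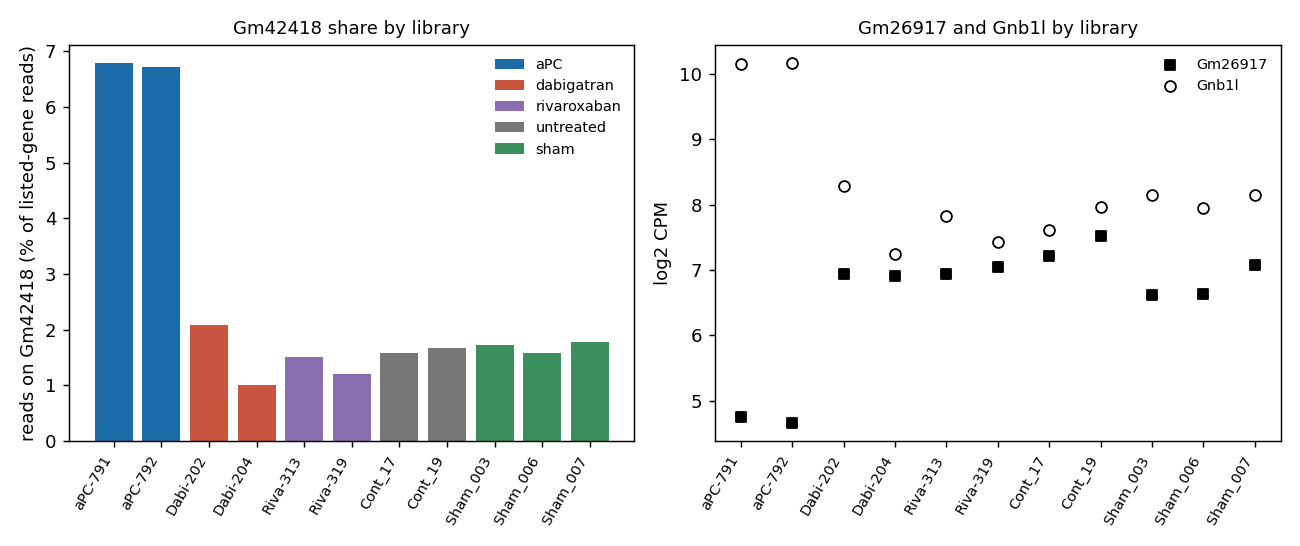
On the left, bars give the percentage of listed-gene reads on Gm42418 in each of the 11 libraries; on the right, points give log2 CPM of Gm26917 (squares) and Gnb1l (circles). Both aPC libraries stand above the other 9 in Gm42418 and Gnb1l and below them in Gm26917.

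The largest falls and rises, 12 of each, were taken by rule from called genes whose libraries did not overlap between the groups. A mean of at least 1 log2 CPM was required, and predicted and clone-named genes and pseudogenes were left out. The falls included Il1r2, Hspa1b, Mmp9, Csf3r, Rab44, Tnc, Il18rap, Gdf15, Apln, Mir142hg and Cxcr2. They ran from -4.32 ± 0.70 for Il1r2, a decoy receptor for interleukin 1, to -3.47 ± 0.74 for Cxcr2, a receptor for neutrophil-attracting chemokines. The rises included Acsm5, Armc2, Gnb1l, Inmt, Ubxn10, Cenpf, Lrrn4cl, Smco1, Abca6, Scn4b and Clec3b, and they ran from 2.51 ± 0.36 for Acsm5, a mitochondrial acyl-CoA synthetase, to 1.94 ± 0.24 for Clec3b, which encodes tetranectin. Levels of Mir142hg, the host transcript of a blood cell microRNA, were 0.73 and 0.01 with aPC and 4.36 and 3.36 with dabigatran. Levels of Smco1 were 3.79 and 3.67 with aPC and 1.27 and 2.25 with dabigatran. Under that rule the libraries of neither gene could overlap between the groups. Armc2, Cenpf, Inmt, Abca6, Ubxn10, Scn4b, Il18rap, Gdf15 and Cxcr2 lost their call without aPC-792 (adjusted p from 0.0594 to 0.163). Without Dabi-202 the same 9 genes lost it (from 0.0564 to 0.237). Without aPC-791 Cenpf, Inmt, Abca6, Scn4b and Gdf15 lost it (from 0.0609 to 0.165), without Dabi-204 Scn4b did (0.0698), and Abca6 did without any 1 rivaroxaban or sham library (from 0.0513 to 0.06).

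Several genes of fibrinolysis and clotting, and some of the protein C pathway itself, were lower with aPC. Of 14 tested members of the protein C pathway and thrombin receptor list, 0 were called higher and 3 lower, which is 21.4% beside 12.3% of all tested genes, with a median difference of -0.29. The 3 were Procr, Lrp8 and Sphk1. Procr (ENSMUSG00000027611, chr2:155751117-155755471, + strand), which encodes the endothelial protein C receptor that binds the injected protein, was at 1.7 and 0.46 log2 CPM with aPC and 3.4 and 2.73 with dabigatran. Both aPC values lay below both dabigatran values, a difference of -1.98 ± 0.39 (adjusted p = 0.00741). In sham hearts Procr was at 1.03, 0.93 and 0.78, in untreated hearts at 1.71 and 1.53 and with rivaroxaban at 1.16 and 1.4. Lrp8, a lipoprotein receptor family member, was lower, at -2.23 ± 0.50 (adjusted p = 0.0122), and Sphk1, the kinase that makes sphingosine 1-phosphate, was lower at -2.38 ± 0.76 (adjusted p = 0.0475).

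The thrombin receptor F2r, which encodes PAR1, was at 5.16 and 5.25 log2 CPM with aPC and 4.98 and 5.27 with dabigatran, and its difference of 0.08 ± 0.19 (adjusted p = 0.804) lay within the spread of the libraries. Its 95% interval ran from -0.35 to 0.51. Thbd, thrombomodulin, was at 6.56 and 6.58 with aPC and 8.11 and 6.72 with dabigatran, with Dabi-202 standing above the other 3, a difference of -0.84 ± 0.33 (adjusted p = 0.0961). F2rl1, which encodes PAR2, was at -0.56 and 0.33 with aPC and 1.0 and 1.23 with dabigatran, a difference of -1.23 ± 0.44 (adjusted p = 0.0697). F3, tissue factor, was at 4.13 and 4.59 with aPC and 3.95 and 3.97 with dabigatran, a difference of 0.40 ± 0.25 (adjusted p = 0.277). None of these 4 was called. The count of 3 called members was 0 without aPC-792 and without Dabi-202, 5 without either untreated library, and 6 after scaling to totals without ribosomal RNA overlapping genes.

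Of 17 tested coagulation and fibrinolysis genes 7 were called lower and 1 higher, with a median difference of -1.0 beside -0.05 over all tested genes. Plaur (ENSMUSG00000046223, chr7:24462484-24475968, + strand), the urokinase receptor, was at 3.4 and 2.39 log2 CPM with aPC and 6.29 and 5.62 with dabigatran, a difference of -3.06 ± 0.37 (adjusted p = 0.00118), and Plau, urokinase itself, was lower, at -1.81 ± 0.29 (adjusted p = 0.00314). The protease and its receptor thus both lay lower in both aPC libraries. F7, clotting factor VII, was at -0.56 and -0.24 with aPC and 2.81 and 2.47 with dabigatran, a difference of -3.04 ± 0.51 (adjusted p = 0.00382). F10, factor X, was at 2.15 and 0.96 with aPC and 4.82 and 3.69 with dabigatran, a difference of -2.7 ± 0.60 (adjusted p = 0.0119). Anxa2, a plasminogen-binding surface protein, was lower, at -1.47 ± 0.26 (adjusted p = 0.00458). The 1 gene called higher was Tfpi, the tissue factor pathway inhibitor, named after its values were seen, at 6.99 and 6.64 with aPC and 6.15 and 5.83 with dabigatran (0.82 ± 0.19, adjusted p = 0.0129). In the dabigatran libraries 10 of the 17 were called higher than sham, where 11.7% of all tested genes were, and in the aPC libraries 1 was, where 0.126% were. Without aPC-792 the calls of Procr, Lrp8, Sphk1 and F10 were lost (adjusted p from 0.0592 to 0.196), and without Dabi-202 likewise (from 0.0637 to 0.315). Tfpi lost its call without aPC-791 (0.101) and without Dabi-204 (0.0672). Sphk1 also lost its call without aPC-791 (0.122) and without any 1 rivaroxaban or sham library (from 0.0667 to 0.0705).

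**Figure D3:**
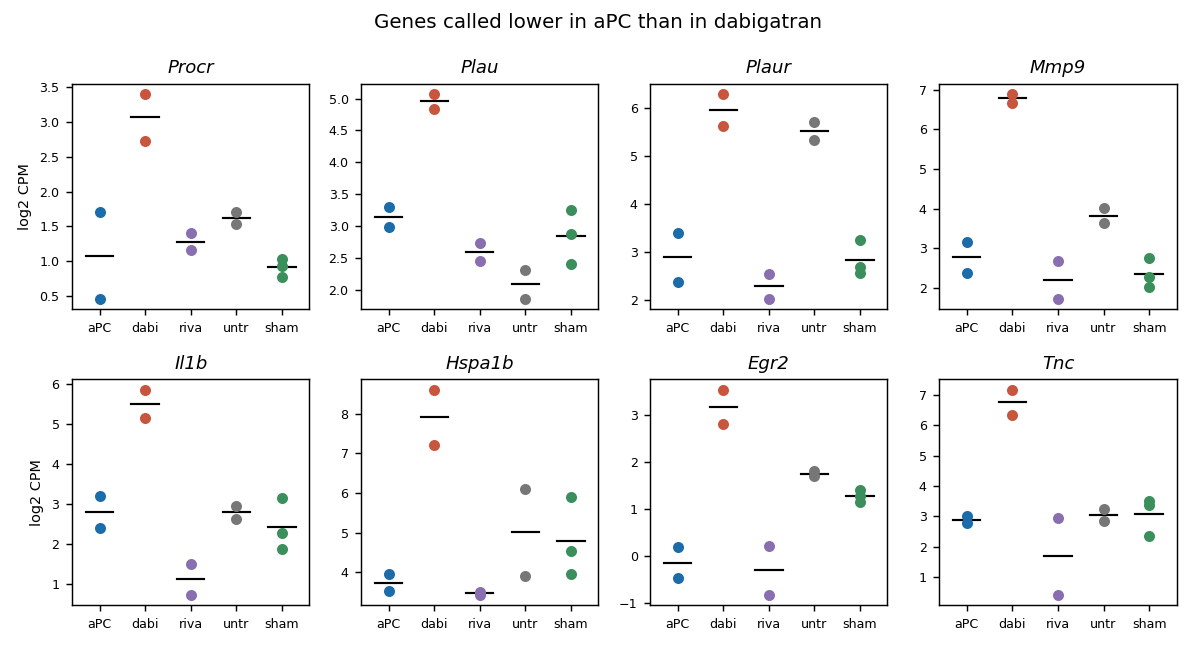
Points give log2 CPM in each library by group (aPC, dabigatran, rivaroxaban, untreated, sham; 2 libraries each, 3 in sham) and lines give group means, on a separate y axis for each gene. The 8 genes were picked from those called lower in aPC, so both dabigatran libraries lie above both aPC libraries in each.

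Neutrophil marker RNA had the largest median difference of the cell type lists. Of 19 tested neutrophil markers 14 were called lower with aPC and 0 higher, and the median difference was -2.88. Mmp9 (ENSMUSG00000017737, chr2:164940780-164955850, + strand), a gelatinase that neutrophils carry in granules, was at 3.16 and 2.38 log2 CPM with aPC and 6.67 and 6.89 with dabigatran. That is a difference of -4.01 ± 0.37 (adjusted p = 0.000843). Csf3r, the receptor for granulocyte colony-stimulating factor, was at 4.12 and 3.07 with aPC and 7.63 and 7.49 with dabigatran, a difference of -3.97 ± 0.42 (adjusted p = 0.00095). S100a8, a subunit of the alarmin calprotectin, was at 4.59 and 3.14 with aPC and 7.78 and 6.61 with dabigatran, a difference of -3.33 ± 0.55 (adjusted p = 0.00365). Among the aPC libraries aPC-791 was above aPC-792 in each of these genes. Trem1, an amplifier of neutrophil signalling, and Il1r2 were lower, at -3.21 ± 0.58 and -4.32 ± 0.70. Summed over the list, the level was 9.08 and 7.75 on the log2 CPM scale with aPC and 10.52 and 9.69 with dabigatran. It was 7.45 to 7.68 in sham, 10.01 and 8.87 in untreated and 8.13 and 7.97 in rivaroxaban libraries, so untreated replicate 17 exceeded Dabi-204. The count of 14 was 7 without aPC-792 and 7 without Dabi-202, and Cxcr2 then lost its call (adjusted p = 0.087 and 0.0859). In tissue RNA, fewer cells of a type and less RNA per cell cannot be told apart.

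Markers of monocytes and recruited macrophages were also lower, and markers of resident macrophages were mixed. Of 22 monocyte and recruited macrophage markers 14 were called lower and 0 higher, with a median of -1.70. Fn1, fibronectin, was at 6.16 and 6.33 log2 CPM with aPC and 8.79 and 9.75 with dabigatran, a difference of -3.03 ± 0.29 (adjusted p = 0.000843). Itgam, an integrin chain of myeloid cells, was lower, at -2.33 ± 0.24 (adjusted p = 0.000898), and Ccr2, the receptor that draws monocytes from blood, was at 3.6 and 3.0 with aPC and 5.43 and 5.84 with dabigatran, lower, at -2.33 ± 0.34 (adjusted p = 0.0023). Thbs1, thrombospondin 1, and Vcan, the proteoglycan versican, were lower, at -2.83 ± 0.43 and -1.41 ± 0.16. Fn1, Thbs1 and Vcan encode matrix proteins, and which cells their RNA came from cannot be told in tissue RNA. In sham hearts Fn1 was at 7.58, 7.52 and 7.33, above the aPC pair, and Ccr2 at 3.94, 3.69 and 3.23. The summed level of the list was 8.81 and 8.44 with aPC, 10.91 and 10.97 with dabigatran, and 8.72 to 9.01 in sham. The count of 14 was 6 without aPC-792 and 6 without Dabi-202.

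Of 19 resident macrophage markers 5 (26.3%) were called higher with aPC and 1 (5.26%) lower, beside 9.21% and 12.3% of all tested genes. The list's median was 0.43. Cbr2 was at 5.78 and 5.44 log2 CPM with aPC and 3.92 and 4.29 with dabigatran, a difference of 1.5 ± 0.19 (adjusted p = 0.00134). Timd4, a receptor for dying cells, was at 2.69 and 2.7 with aPC and 0.44 and 1.57 with dabigatran, a difference of 1.69 ± 0.48 (adjusted p = 0.0313). C1qc, a chain of complement C1q, was higher by 0.54 ± 0.15 (adjusted p = 0.0303), and Mertk, another receptor for dying cells, was lower, at -0.98 ± 0.23 (adjusted p = 0.0143). The general macrophage gene Adgre1, which encodes F4/80, was at 4.78 and 5.15 with aPC and 4.96 and 5.11 with dabigatran, overlapping between the groups (-0.07 ± 0.27). The summed list gave 10.09 and 9.96 with aPC and 9.71 and 9.88 with dabigatran, a small gap. The count of 5 was 1 without aPC-791, aPC-792 or Dabi-202, 3 without either rivaroxaban library and 2 on totals without ribosomal RNA overlapping genes. Timd4, C1qc and Mertk lost their call without aPC-791, aPC-792 or Dabi-202 (adjusted p from 0.0635 to 0.215), C1qc also without either rivaroxaban library (0.0507 and 0.0508) and Mertk without Dabi-204 (0.0543).

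Lymphoid and antigen-presenting lists had few tested members. Of 13 dendritic cell and MHC class II genes 3 (23.1%) were called lower and 0 higher, beside 12.3% and 9.21% of all tested genes. Itgax, an integrin chain of dendritic cells and macrophages, led the falls, at 0.41 and 1.49 with aPC and 3.81 and 4.43 with dabigatran (-3.17 ± 0.40). Of 9 B cell markers 3 (33.3%) were called lower and 0 higher, among them Cd37 at -1.66 ± 0.22. Both counts were 1 without aPC-791, aPC-792 or Dabi-204, and the first was 1 without Dabi-202. Among 3 T and NK cell and 5 platelet and megakaryocyte markers limma and voom each called 0, with 0 and 1 of them at an unadjusted p under 0.05.

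Many cytokine, chemokine and NF-kB genes were lower with aPC, while most members of the interleukin 1 and chemokine lists were not called. Of 16 interleukin 1 and inflammasome genes 5 were called lower and 0 higher (median -0.62). Il1b, which encodes interleukin 1 beta, was at 3.19 and 2.41 log2 CPM with aPC and 5.85 and 5.16 with dabigatran, a difference of -2.71 ± 0.45 (adjusted p = 0.00351). Il1b has an antisense partner, Il1bos, and the strand setting of the count is not given in the sources used here. Nlrp3, the inflammasome sensor that lets interleukin 1 beta be cut, was at 1.77 and 0.84 with aPC and 4.29 and 3.8 with dabigatran, a difference of -2.74 ± 0.38 (adjusted p = 0.00179). Il1rn, the natural antagonist of interleukin 1, was lower too, at -2.86 ± 0.47 (adjusted p = 0.00351), so an agonist, its antagonist and its decoy receptor Il1r2 lay lower together. In sham hearts Il1b was at 1.88, 2.26 and 3.14, which overlaps the aPC pair, and in untreated hearts at 2.62 and 2.95. The count of 5 was 8 without either untreated library.

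Of 16 interleukin 6 family and Stat3 genes 9 were called lower and 2 higher (median -0.87). Il6 was at 0.93 and 0.46 with aPC and 4.68 and 2.82 with dabigatran, a difference of -3.06 ± 0.76 (adjusted p = 0.0187), with Dabi-202 well above Dabi-204. Lif, a related cytokine, was lower, at -2.97 ± 0.59, and Socs3, the feedback inhibitor of this signalling, was lower at -1.84 ± 0.37. The count of 9 was 0 without aPC-792 and 1 without Dabi-202. Of 18 chemokines 7 were called lower and 1 higher (median -1.07). Ccl7, which draws monocytes, was at 3.81 and 3.96 with aPC and 6.36 and 5.83 with dabigatran, a difference of -2.21 ± 0.29 (adjusted p = 0.00144). Cxcl2 and Cxcl1, which draw neutrophils, were lower, at -3.11 ± 0.49 and -2.68 ± 0.55. The chemokine count was 2 without aPC-792 or Dabi-202 and 11 without either untreated library. Tnf, tumour necrosis factor, was at 0.17 and -0.39 with aPC and 2.16 and 0.86 with dabigatran, a difference of -1.62 ± 0.56 (adjusted p = 0.0629) that was not called.

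Of 21 NF-kB subunits and target genes 13 were called lower and 0 higher (median -0.98). Sele, the endothelial adhesion molecule E-selectin, was at 1.7 and 1.14 with aPC and 3.98 and 3.56 with dabigatran, a difference of -2.35 ± 0.32 (adjusted p = 0.00159). Nfkbiz, a nuclear cofactor of NF-kB, and Relb, a subunit, were lower, at -1.86 ± 0.26 and -1.12 ± 0.18. Ptgs2, cyclooxygenase 2, was lower, at -2.74 ± 0.54 (adjusted p = 0.00706). The count of 13 was 4 without aPC-792 and 4 without Dabi-202. Among the cytokine and NF-kB genes named, Il6, Lif, Socs3, Cxcl1, Ptgs2 and Tnfaip3 lost their call without either of these libraries (adjusted p from 0.0567 to 0.149), and Il6 without aPC-791 (0.064).

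RefSeq promoter windows were at hand for 10433 of the tested genes, taken as the 250 bases before each start on GRCm38.p6. Of the 10433 genes 2142 had more than 1 window, and a match in any window was counted once. An exact NF-kB motif, GGAATTTCC on either strand, was found for 0.422% of the 10433 genes. It was found for 1.39% of the 1295 of them called lower in aPC and 0.409% of the 979 called higher. This motif was among several searched. TGACTCA (AP-1) was found for 6.02% of genes called lower and 4.09% of all, and TTTCCCGC (E2F) for 2.39% and 1.91%. For TGACGTCA (CRE) these were 2.93% and 2.95%, and for TTATGTAA (D-box) 0.463% and 0.585%. For TGACNNNGC (antioxidant element) they were 14.1% and 13.9%, and for TGACGTGG (unfolded protein response element) 0.618% and 0.882%. Among NF-kB list members with a window it was found for 4 of 17, and of these Cxcl1 and Tnfaip3 were called. Tnfaip3, the deubiquitinase A20 that damps NF-kB, is named for this match, and it was at 2.77 and 2.31 with aPC and 4.31 and 3.59 with dabigatran (-1.41 ± 0.32). The windows of both are shown because they carry the motif (in capitals) before genes that were lower with aPC. A match is only a description of the letters, and neither this motif nor the heat shock motif given further on contains the other.
Cxcl1 (chr5:90890995-90891244, + strand): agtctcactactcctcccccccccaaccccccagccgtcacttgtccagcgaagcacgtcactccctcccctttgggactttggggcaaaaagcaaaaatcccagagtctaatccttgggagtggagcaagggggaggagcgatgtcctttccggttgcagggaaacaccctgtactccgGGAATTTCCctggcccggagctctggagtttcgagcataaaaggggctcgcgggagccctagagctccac
Tnfaip3 (chr10:19015411-19015660, - strand): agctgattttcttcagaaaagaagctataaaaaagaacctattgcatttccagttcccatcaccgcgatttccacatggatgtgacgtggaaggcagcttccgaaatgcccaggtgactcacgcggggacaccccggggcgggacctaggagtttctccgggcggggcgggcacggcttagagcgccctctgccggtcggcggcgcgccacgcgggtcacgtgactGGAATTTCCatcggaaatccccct

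Some inducible heat shock proteins were lower with aPC, while other chaperones of the list were not called. Of 18 heat shock chaperones 4 (22.2%) were called lower and 0 higher, beside 12.3% and 9.21% of all tested genes. The median was -0.20, close to that of all genes. Hspa1b (ENSMUSG00000090877, chr17:34956436-34959238, - strand), an inducible HSP70, was at 3.95 and 3.52 log2 CPM with aPC and 8.61 and 7.22 with dabigatran, a difference of -4.18 ± 0.73 (adjusted p = 0.0044). Hspa1a was at -0.32 and -1.2 with aPC and 4.17 and 2.51 with dabigatran (-4.1 ± 0.83). The Hspa1a and Hspa1b genes are near-identical copies whose windows before the start differ at 3 of 250 positions, so the split of reads between them is uncertain. Hspb1, the small chaperone HSP27, was at 8.69 and 8.63 with aPC and 11.3 and 10.58 with dabigatran, a difference of -2.28 ± 0.36 (adjusted p = 0.00295), and Hsp90aa1, an inducible HSP90, was lower, at -1.43 ± 0.33 (adjusted p = 0.0136). In sham hearts Hspa1b was at 4.55, 3.95 and 5.89, all below both dabigatran libraries. The count of 4 was 2 without aPC-792 or Dabi-202, where Hspa1a and Hsp90aa1 lost their call (adjusted p from 0.058 to 0.111), and Hsp90aa1 lost it without aPC-791 (0.0814). Of 22 endoplasmic reticulum chaperones and unfolded protein response genes limma and voom each called 0, with 1 at an unadjusted p under 0.05.

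A pair of inverted heat shock units, GAANNTTC (the same on both strands), was in the windows of 7 of 13 listed chaperones. It was found for 6.11% of all 10433 genes with a window, for 6.1% of those called lower and for 6.33% of those called higher. Of the 7 listed chaperones with a match 3 were called, Hspa1a, Hspa1b and Hspb1. The windows of Hspa1b and Hspb1 are shown with the matches in capitals because both genes were lower with aPC.
Hspa1b (chr17:34959239-34959488, - strand): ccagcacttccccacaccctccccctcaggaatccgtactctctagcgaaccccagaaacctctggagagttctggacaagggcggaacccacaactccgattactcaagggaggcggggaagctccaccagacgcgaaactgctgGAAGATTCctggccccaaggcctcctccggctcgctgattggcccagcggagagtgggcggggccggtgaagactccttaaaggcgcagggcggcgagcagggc
Hspb1 (chr5:135887669-135887918, + strand): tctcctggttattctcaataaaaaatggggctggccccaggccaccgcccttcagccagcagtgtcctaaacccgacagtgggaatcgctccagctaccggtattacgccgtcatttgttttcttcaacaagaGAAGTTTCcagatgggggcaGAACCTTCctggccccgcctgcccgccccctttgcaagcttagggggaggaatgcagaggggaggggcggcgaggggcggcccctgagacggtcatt

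Immediate-early genes, which encode transcription factors switched on within minutes of a stimulus, were lower as a group. Of 25 members 21 were called lower with aPC and 0 higher, with a median of -1.56. Egr2 was at -0.48 and 0.18 log2 CPM with aPC and 3.55 and 2.82 with dabigatran, a difference of -3.33 ± 0.40 (adjusted p = 0.00118). Fosl1, an AP-1 subunit, was at 2.5 and 2.39 with aPC and 5.44 and 4.5 with dabigatran, a difference of -2.53 ± 0.31 (adjusted p = 0.00125). Myc, a growth regulator, was at 3.38 and 2.6 with aPC and 5.83 and 4.83 with dabigatran, a difference of -2.34 ± 0.36 (adjusted p = 0.00273). In each of these genes Dabi-202 was above Dabi-204 and both were above the aPC pair. Junb, another AP-1 subunit, was lower, at -1.66 ± 0.30. The group median beside sham was -0.65 in aPC and 0.95 in dabigatran libraries. With dabigatran 11 members were called higher than sham, where 11.7% of all tested genes were. The count of 21 was 8 without aPC-791, 6 without aPC-792 and 5 without Dabi-202, although the genes named here kept their calls. Of 14 MAP kinase phosphatase genes, feedback inhibitors of growth signalling, 5 were called lower and 0 higher. Spry4 and Dusp6 were lower, at -1.75 ± 0.25 and -1.11 ± 0.17. That count was 3 without aPC-791, aPC-792 or Dabi-202, 8 without either untreated library and 10 on totals without ribosomal RNA overlapping genes.

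Several matrix genes of early repair were lower with aPC, while the main fibrillar collagen was not called. Of 29 matrix and fibrosis genes 15 were called lower and 0 higher, with a median of -0.96. Tnc (ENSMUSG00000028364, chr4:63959785-64047015, - strand), the injury matrix protein tenascin C, was at 2.77 and 3.02 log2 CPM with aPC and 6.34 and 7.17 with dabigatran, a difference of -3.86 ± 0.67 (adjusted p = 0.00422). In sham hearts it was at 3.38, 3.52 and 2.37, around the aPC pair. Ltbp2, a latent TGF beta binding protein family member, was at 2.25 and 2.28 with aPC and 4.82 and 5.77 with dabigatran, a difference of -3.03 ± 0.41 (adjusted p = 0.00155). Col4a1 and Col4a2, the basement membrane collagens that share a promoter region on opposite strands, were lower, at -1.05 ± 0.15 and -0.96 ± 0.14. Col1a1, the chief fibrillar collagen, was at 6.48 and 7.31 with aPC and 6.28 and 7.81 with dabigatran, overlapping between the groups, with a difference of -0.15 ± 0.43 (adjusted p = 0.833). Its 95% interval ran from -1.10 to 0.79. The count of 15 was 8 without aPC-792.

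Of 22 matrix proteases and inhibitors 10 were called lower and 2 higher (median -0.85). Adamts4, an aggrecanase, was at 2.3 and 1.76 with aPC and 5.41 and 5.0 with dabigatran, a difference of -3.17 ± 0.36 (adjusted p = 0.00115). Adam8, a myeloid sheddase, was lower, at -3.13 ± 0.54. The count of 10 was 6 without aPC-791. Of 21 TGF beta and activin genes 11 were called lower and 0 higher (median -1.06). Inhba, the activin A subunit, was at 1.28 and 0.73 with aPC and 4.57 and 4.21 with dabigatran, a difference of -3.38 ± 0.45 (adjusted p = 0.00148). Tgfb2, a TGF beta ligand, and Tgfbi, a target of the pathway, were lower, at -1.89 ± 0.29 and -1.93 ± 0.30. The count of 11 was 7 without aPC-791 and 5 without aPC-792 or Dabi-202.

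Several stress genes of heart muscle were lower with aPC. Of 13 cardiac stress and fetal genes 7 were called lower and 0 higher, with a median of -2.11. Xirp2, a protein of the intercalated disc, was at 8.06 and 8.27 log2 CPM with aPC and 10.87 and 10.62 with dabigatran, a difference of -2.58 ± 0.27 (adjusted p = 0.00095). Fhl1, a sarcomere-associated LIM protein, was at 8.29 and 8.17 with aPC and 11.09 and 10.26 with dabigatran, a difference of -2.44 ± 0.33 (adjusted p = 0.00155). Nppa, which encodes atrial natriuretic peptide, was at 5.84 and 5.83 with aPC and 7.87 and 8.11 with dabigatran, a difference of -2.15 ± 0.37 (adjusted p = 0.00429). Ankrd1 and Rcan1, a target of calcineurin, were lower, at -1.46 ± 0.30 and -1.32 ± 0.31. Gdf15, a stress cytokine, was at 1.16 and 1.34 with aPC and 6.28 and 3.47 with dabigatran, where Dabi-202 was far above Dabi-204. Its difference was -3.63 ± 0.94 (adjusted p = 0.0222). Nppb, which encodes brain natriuretic peptide, was at 7.69 and 7.91 with aPC and 10.94 and 9.68 with dabigatran, apart between the groups but not called (-2.51 ± 1.07, adjusted p = 0.118), and in sham hearts it was at 6.58, 8.34 and 7.98. The count of 7 was 3 without aPC-792 or Dabi-202, where Ankrd1, Rcan1 and Gdf15 lost their call (adjusted p from 0.0643 to 0.173), and Gdf15 lost it without aPC-791 (0.0965).

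Some contractile, calcium handling and channel genes were higher with aPC, and most of these lists' members were not called. Of 17 sarcomere and calcium handling genes 6 were called higher and 0 lower, with a median of 0.52. Atp2a2, the calcium pump of the sarcoplasmic reticulum, was at 14.12 and 14.22 log2 CPM with aPC and 13.13 and 13.37 with dabigatran, a difference of 0.92 ± 0.20 (adjusted p = 0.0099). Tnni3, cardiac troponin I, was higher by 0.83 ± 0.20 (adjusted p = 0.0181), and Casq2, the calcium store protein, by 0.67 ± 0.18 (adjusted p = 0.0246). Myh6, the main myosin heavy chain of the adult mouse heart, was at 14.97 and 14.79 with aPC and 14.31 and 14.41 with dabigatran, a difference of 0.52 ± 0.27 (adjusted p = 0.202) that was not called and was -0.52 after quantile normalization. The count of 6 was 1 without aPC-791, Dabi-202 or Dabi-204, 0 without aPC-792 and 0 after quantile normalization, which also took the list's median to 0.06. Of 14 cardiomyocyte identity genes 4 were called higher and 0 lower, among them Ckm, muscle creatine kinase (0.83 ± 0.17). That count was 1 without aPC-791, aPC-792 or Dabi-204 and after quantile normalization, 2 without either rivaroxaban library or sham replicates 003 or 007, and 8 after centring.

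Of 21 potassium, sodium and calcium channel genes 9 were called higher and 0 lower, with a median of 0.86. Kcnd2, a channel of the transient outward potassium current, was at 6.15 and 6.3 log2 CPM with aPC and 3.91 and 5.04 with dabigatran, a difference of 1.75 ± 0.32 (adjusted p = 0.00498). Scn4b, a sodium channel subunit, was at 5.53 and 5.55 with aPC and 3.54 and 3.63 with dabigatran, a difference of 1.96 ± 0.51 (adjusted p = 0.0228), beside a wide sham range of 6.86, 5.17 and 5.0. Kcnj3, a channel opened by acetylcholine, was higher by 1.32 ± 0.32 (adjusted p = 0.0165). The channel median beside sham was -0.07 with aPC and -0.96 with dabigatran, where 11 members were called lower than sham (6.82% of all tested genes were). The count of 9 was 3 without aPC-791 and 1 without aPC-792 or Dabi-202. Of 16 adrenergic signalling genes 5 were called higher and 0 lower, among them the receptor Adra1b (0.79 ± 0.16) and the cyclase Adcy5 (0.60 ± 0.15), with a median of 0.14 that was -0.02 on totals without ribosomal RNA overlapping genes. That count was 0 without aPC-791 or Dabi-202, 1 without aPC-792, 3 without sham replicate 006 or either rivaroxaban library, and 2 on those totals. Of the 9 called genes named for muscle and channels, only Ckm and Kcnd2 kept their call when any 1 of the 11 libraries was left out. Without aPC-792 the other 7 lost theirs apart from Adra1b (adjusted p from 0.0691 to 0.16), and without Dabi-202 apart from Tnni3 (from 0.056 to 0.119). Without aPC-791 they lost it apart from Atp2a2 (from 0.0542 to 0.0979), and without Dabi-204 Tnni3, Casq2 and Scn4b did (from 0.0698 to 0.0926).

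**Figure D4:**
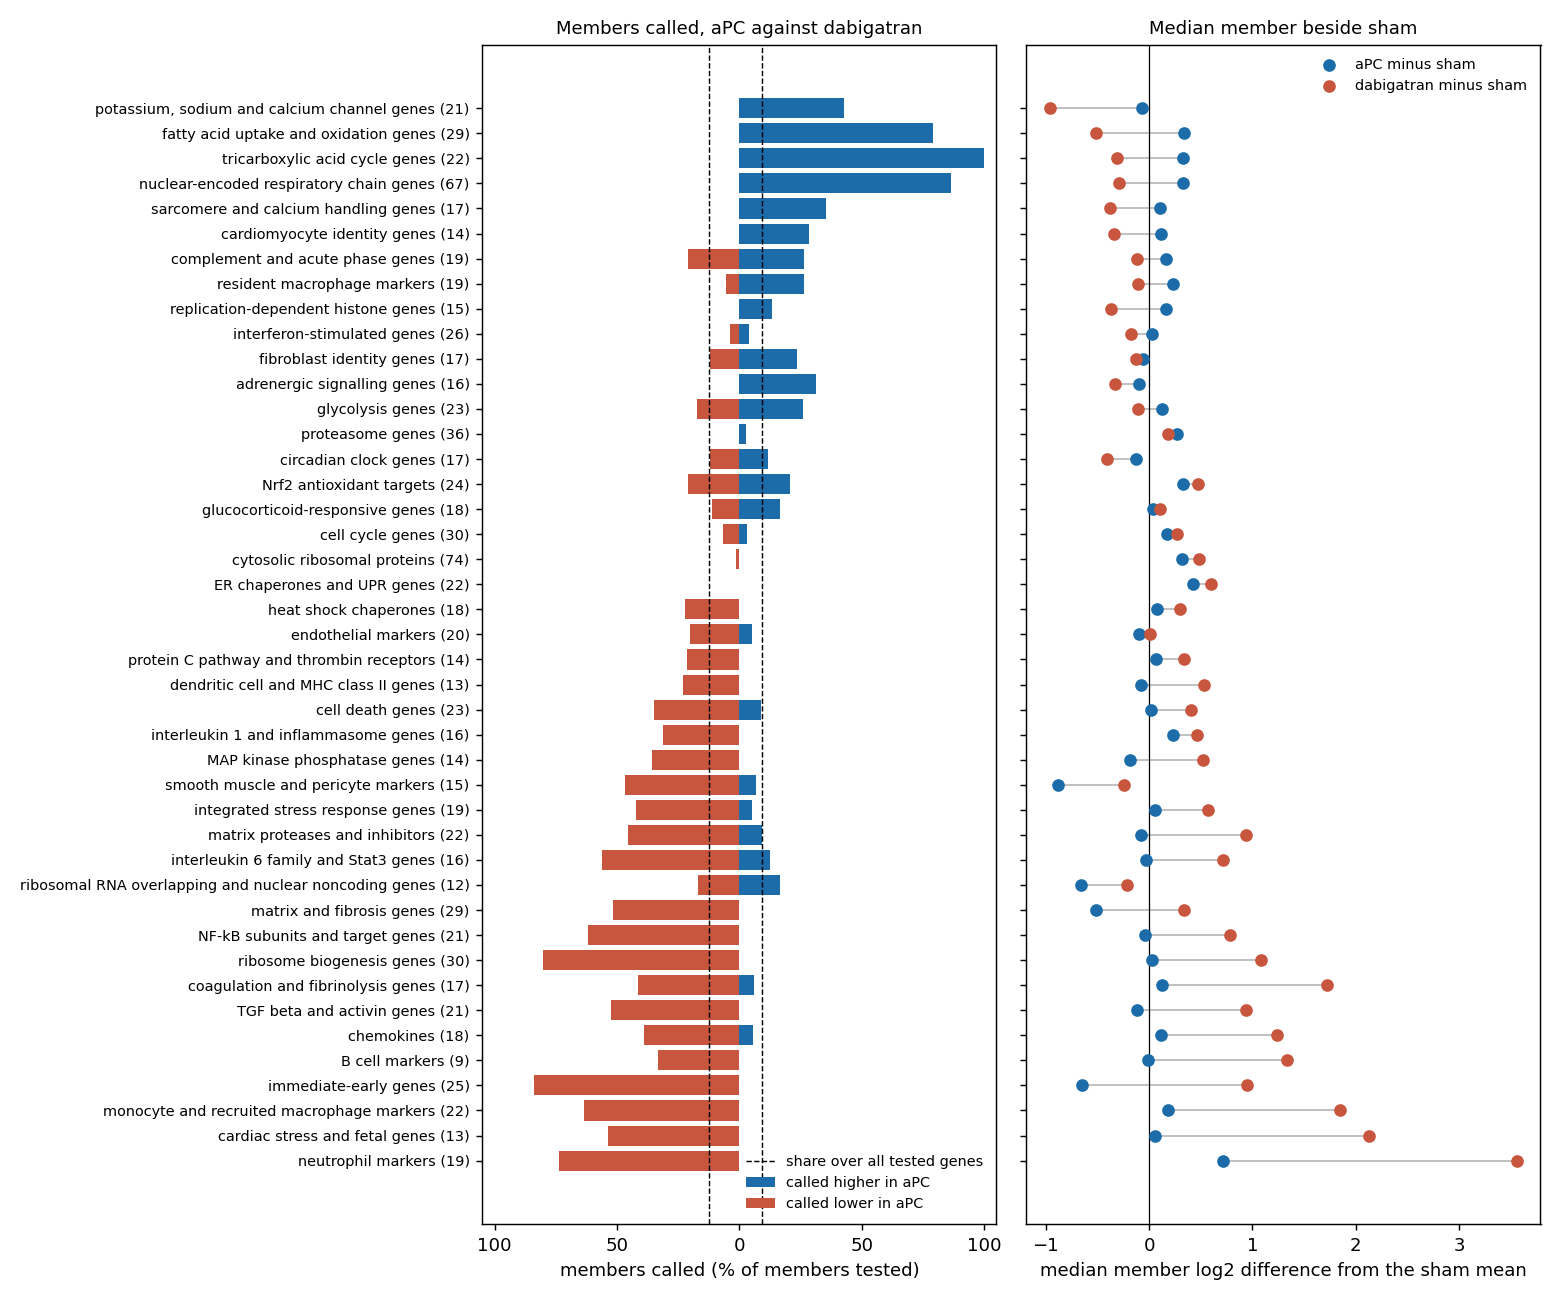
On the left, bars give the percentage of tested members of each list called higher (right) or lower (left) in aPC than in dabigatran, with dashed lines at the shares over all tested genes, 9.21% and 12.3%, and the number tested in brackets. On the right, points give the median member's log2 difference from the sham mean in aPC and in dabigatran; both share the 3 sham libraries. Neutrophil markers have 73.7% of members called lower, and all tricarboxylic acid cycle genes are called higher.

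Nuclear-encoded mitochondrial energy genes were higher with aPC, mostly by less than 1 on the log2 scale. Of 15 mitochondrially encoded genes looked for, 0 were in the deposited data, so these results and the read totals leave such genes out. Of 29 tested fatty acid uptake and oxidation genes 23 were called higher and 0 lower, with a median of 0.81. Cpt2 (ENSMUSG00000028607, chr4:107903981-107923610, - strand), a carnitine palmitoyltransferase of the inner membrane, was at 8.15 and 8.02 log2 CPM with aPC and 6.84 and 6.96 with dabigatran, a difference of 1.19 ± 0.13 (adjusted p = 0.00104). Etfdh, which passes electrons from fatty acid oxidation to the respiratory chain, was at 9.72 and 9.64 with aPC and 8.79 and 8.6 with dabigatran, a difference of 0.98 ± 0.13 (adjusted p = 0.00161). Mlycd, which removes the malonyl-CoA brake on fatty acid entry, was higher by 1.07 ± 0.17. Ucp3, a mitochondrial carrier, was at 4.87 and 4.42 with aPC and 4.35 and 3.56 with dabigatran and not called (0.69 ± 0.62, adjusted p = 0.461). Acsm5, among the largest rises, was at 3.68 and 3.14 with aPC and 0.55 and 1.26 with dabigatran, though it overlaps Pdilt on the opposite strand.

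All 22 tricarboxylic acid cycle genes were called higher with aPC, from 0.51 to 0.80 with a median of 0.65. Idh2, mitochondrial isocitrate dehydrogenase, was at 11.11 and 11.02 log2 CPM with aPC and 10.27 and 10.27 with dabigatran, a difference of 0.80 ± 0.14 (adjusted p = 0.0046). Suclg2, a subunit of succinyl-CoA ligase, was at 7.99 and 7.95 with aPC and 7.28 and 7.22 with dabigatran, a difference of 0.72 ± 0.11 (adjusted p = 0.00307). Pdha1, of pyruvate dehydrogenase, and Cs, citrate synthase, were higher by 0.69 ± 0.12 and 0.64 ± 0.13. Of 67 nuclear-encoded respiratory chain genes 58 were called higher and 0 lower. In all 67 both aPC libraries lay above both dabigatran libraries, beside 29.4% of all tested genes. Differences of the 67 ran from 0.45 to 0.82 with a median of 0.62. Ndufa10, a complex I subunit, was at 9.67 and 9.59 with aPC and 8.87 and 8.75 with dabigatran, a difference of 0.82 ± 0.15 (adjusted p = 0.00461). The complex I subunit Ndufs1 and the complex IV subunit Cox5a were higher by 0.75 ± 0.13 and 0.71 ± 0.14.

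The mitochondrial counts moved with single libraries. The cycle count of 22 was 5 without aPC-791 or aPC-792 and 12 without Dabi-204, and the respiratory chain count of 58 was 6, 8 and 10 in turn, and 30 in a fit of the 4 libraries alone. On totals without ribosomal RNA overlapping genes the counts were 22 for fatty acid oxidation, 19 for the cycle and 42 for the respiratory chain, and the medians were 0.65, 0.49 and 0.46 beside -0.21 for all tested genes. Among the genes named, Cs lost its call without aPC-792 (adjusted p = 0.0558). Beside sham, the median respiratory chain gene was at 0.33 with aPC and -0.29 with dabigatran. The median fatty acid gene was at 0.34 and -0.51, and 18 of its list were called lower than sham with dabigatran against 0 with aPC. Of all tested genes 6.82% were called lower than sham with dabigatran and 1.05% with aPC. Summed respiratory chain RNA was 15.68 and 15.58 with aPC, 15.13 and 14.83 with dabigatran and 15.19 to 15.39 in sham. Gm42418 was also higher in both aPC libraries, and apart from that rescaling its part was not tested. Cardiomyocyte identity RNA moved the same way, at 16.26 and 16.21 with aPC and 15.68 and 15.70 with dabigatran, and its part was not tested.

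**Figure D5:**
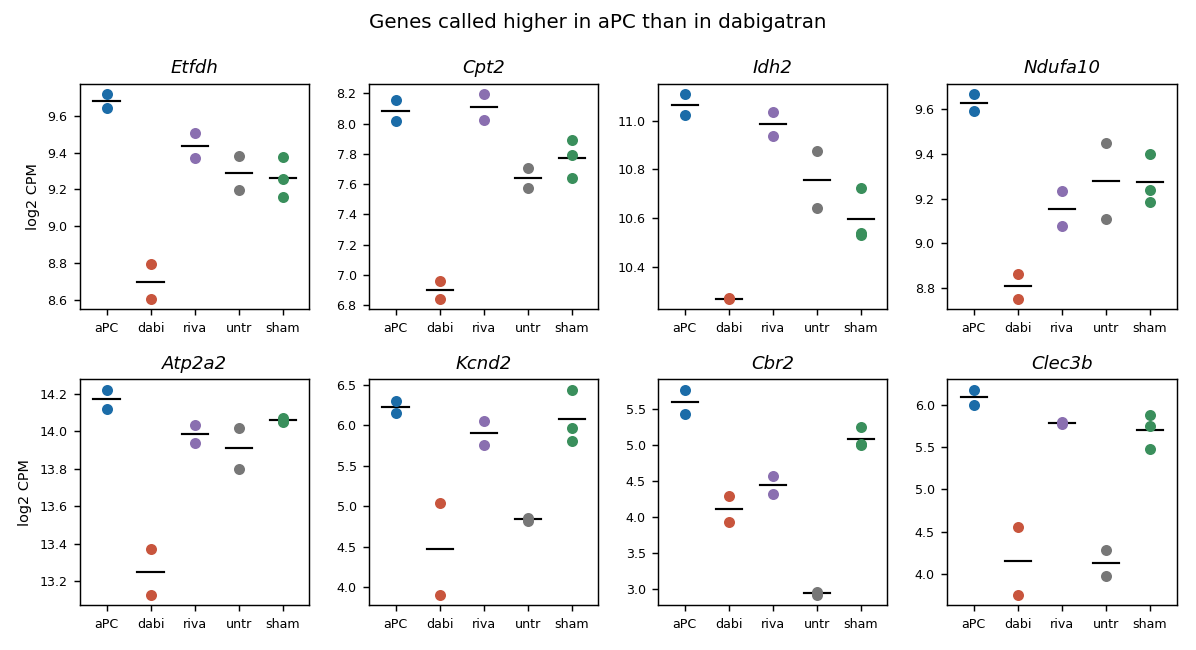
Points give log2 CPM in each library by group (aPC, dabigatran, rivaroxaban, untreated, sham) and lines give group means, on a separate y axis for each gene. The 8 genes were picked from those called higher in aPC, so both aPC libraries lie above both dabigatran libraries in each.

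Ribosome biogenesis genes, whose products build ribosomes in the nucleolus, were lower with aPC. Of 30 members 24 were called lower and 0 higher, with a median of -1.0. Mybbp1a, a nucleolar protein, was at 6.77 and 6.58 log2 CPM with aPC and 7.96 and 7.68 with dabigatran, a difference of -1.15 ± 0.15 (adjusted p = 0.00141). Utp20, of the small subunit processome, was at 4.61 and 4.52 with aPC and 5.63 and 5.72 with dabigatran, a difference of -1.11 ± 0.15 (adjusted p = 0.00156). Npm1, nucleophosmin, and Rrp12, a factor of subunit export, were lower, at -1.15 ± 0.18 and -1.41 ± 0.25. In 29 of the 30 both aPC libraries lay below both dabigatran libraries, beside 36.1% of all tested genes. Beside sham the group median was 0.03 with aPC and 1.08 with dabigatran. The count of 24 was 15 without aPC-791, 6 without aPC-792 and 9 without Dabi-202. Of 74 cytosolic ribosomal proteins only Rpl3 was called between aPC and dabigatran (-0.97 ± 0.20, adjusted p = 0.00811), and the median of -0.17 stayed below 0 under each scaling, from -0.33 to -0.04. Beside sham 37 of the 74 were called higher with dabigatran and 0 with aPC, where 11.7% and 0.126% of all tested genes were. The list's medians beside sham were 0.48 and 0.32. Rpl3 lost its call without aPC-792 (adjusted p = 0.0714) or Dabi-202 (0.0638). That count of 1 was 2 without either untreated library, 4 without Dabi-204, 8 on totals without ribosomal RNA overlapping genes and 9 after quantile normalization. The E-box CACGTG was in a window of 1 of 24 of the biogenesis genes, Nop2, and of 9.73% of all genes with a window.

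Some genes of the integrated stress response, among them enzymes of amino acid synthesis, were lower with aPC. Of 19 tested members 8 were called lower and 1 higher (median -0.80). Summed over the list, the level overlapped between the groups, at 9.99 and 9.77 log2 CPM with aPC and 10.24 and 9.7 with dabigatran. Psat1 and Mthfd2, of serine and one-carbon metabolism, were lower, at -2.26 ± 0.26 and -2.53 ± 0.34. Asns, asparagine synthetase, was at 2.38 and 1.45 with aPC and 4.57 and 4.41 with dabigatran, a difference of -2.57 ± 0.33 (adjusted p = 0.00134). The count of 8 was 5 without aPC-792 or Dabi-202. Glycolysis genes were split: of 23, 6 (26.1%) were called higher and 4 (17.4%) lower, beside 9.21% and 12.3% of all tested genes. Slc2a1, the basal glucose transporter, was at 3.31 and 3.47 with aPC and 5.47 and 4.97 with dabigatran, a difference of -1.83 ± 0.23 (adjusted p = 0.00133). Slc16a3, a lactate exporter, and Eno1, the widely expressed enolase, were lower, at -2.44 ± 0.29 and -0.81 ± 0.14. Pgam2, the muscle phosphoglycerate mutase, was higher by 0.95 ± 0.18 (adjusted p = 0.00591). The 6 higher calls were 0 without aPC-792, 1 without aPC-791 or Dabi-204, and 3 without Dabi-202, sham replicate 003, either rivaroxaban library or on totals without ribosomal RNA overlapping genes, and 2 after quantile normalization.

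Nrf2 antioxidant targets were split in the same manner, with 5 of 24 (20.8%) called in each direction. Of all tested genes 9.21% were called higher and 12.3% lower. Gsr, glutathione reductase, and Slc7a11, the cystine importer, were lower, at -1.37 ± 0.18 and -1.55 ± 0.30, and Sod2, mitochondrial superoxide dismutase, was higher by 0.67 ± 0.17. The 5 higher calls were 0 without aPC-791 or Dabi-204, 1 without aPC-792 and on totals without ribosomal RNA overlapping genes, and 3 without Dabi-202. The 5 lower calls were 2 without aPC-792 or Dabi-202, 8 without Dabi-204 or either untreated library, and 9 on those totals. Among 23 cell death genes 8 (34.8%) were called lower and 2 (8.7%) higher. Their summed level was not lower with aPC, at 10.8 and 10.61 log2 CPM against 10.61 and 10.24 with dabigatran. Bnip3, a mitophagy receptor, was higher by 1.27 ± 0.19, and Ripk3, the necroptosis kinase, was lower, at -1.64 ± 0.24. The count of 8 was 2 without aPC-792 and 4 without Dabi-202. Of 18 glucocorticoid-responsive genes 3 (16.7%) were called higher and 2 (11.1%) lower, near the 9.21% and 12.3% of all tested genes, with a median of -0.08. Klf15, a glucocorticoid-induced regulator of metabolism, was at 6.15 and 6.26 with aPC and 4.96 and 5.39 with dabigatran, higher by 1.03 ± 0.16 (adjusted p = 0.0028). Angptl4, an inhibitor of lipoprotein lipase, was at 4.21 and 3.16 with aPC and 7.03 and 5.64 with dabigatran, lower, at -2.65 ± 0.74 (adjusted p = 0.0285). Of the genes named for glycolysis, antioxidant defence, cell death and glucocorticoid response, Pgam2, Slc7a11, Sod2 and Angptl4 lost their call without aPC-792 (adjusted p from 0.0507 to 0.178). Slc7a11 and Angptl4 lost it without Dabi-202 (0.0538 and 0.197), Sod2 and Angptl4 without aPC-791 (0.0705 and 0.0571) and Sod2 without Dabi-204 (0.0922).

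Vessel wall and connective tissue genes showed differences of both signs. Of 15 smooth muscle and pericyte markers 7 were called lower and 1 higher (median -0.77). Cspg4, the pericyte proteoglycan NG2, was at 4.86 and 4.99 log2 CPM with aPC and 6.05 and 6.4 with dabigatran, a difference of -1.3 ± 0.16 (adjusted p = 0.00127). Rgs5, another pericyte marker, went the other way, at 9.38 and 9.52 with aPC and 8.5 and 8.77 with dabigatran, a difference of 0.81 ± 0.14 (adjusted p = 0.00445). Notch3, a receptor of mural cells, was lower, at -0.97 ± 0.19 (adjusted p = 0.00695). Beside sham, 5 of the 15 were called lower with aPC (1.05% of all tested genes were), with a median of -0.88. With dabigatran 2 were (6.82% of all tested genes were), with a median of -0.24. The count of 7 was 4 without aPC-791 or Dabi-204 and 2 without aPC-792. Of 20 endothelial markers 4 (20%) were called lower and 1 (5%) higher, beside 12.3% and 9.21% of all tested genes. The list's median was -0.21. Apln, the tip cell peptide apelin, led the falls, at 2.84 and 3.35 with aPC and 6.42 and 6.75 with dabigatran (-3.49 ± 0.36, adjusted p = 0.000898). That count of 4 was 1 without any 1 of the 4 compared libraries, and 2 without either rivaroxaban library or after centring.

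Of 17 fibroblast identity genes 4 (23.5%) were called higher and 2 (11.8%) lower, beside 9.21% and 12.3% of all tested genes. Gsn, gelsolin, was at 10.43 and 10.39 with aPC and 9.31 and 9.57 with dabigatran, a difference of 0.97 ± 0.17 (adjusted p = 0.00468), and Dcn, the proteoglycan decorin, was higher by 0.82 ± 0.16. Pi16, a marker of resting fibroblasts, was at 6.59 and 6.88 with aPC and 5.26 and 5.54 with dabigatran, a difference of 1.33 ± 0.28 (adjusted p = 0.00883). Clec3b and Lrrn4cl, among the largest rises, were at 6.0 and 6.18 with aPC and 3.75 and 4.55 with dabigatran and at 3.53 and 3.0 with aPC and 1.36 and 1.21 with dabigatran. The count of 4 was 2 without aPC-791, aPC-792 or Dabi-202. Pi16 lost its call without aPC-792 (adjusted p = 0.0722) or Dabi-202 (0.0675), Notch3 without aPC-792 (0.0519) and Dcn without aPC-791 (0.0575). Complement and acute phase genes were split as well, with 5 of 19 (26.3%) called higher and 4 (21.1%) lower. The 5 were 2 without aPC-791 or aPC-792, 1 without Dabi-202 and on totals without ribosomal RNA overlapping genes, 3 without either rivaroxaban library, 8 after centring, and 8 and 9 without untreated replicates 17 and 19.

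The other libraries of the table give the levels on either side of the comparison. Against sham, 2508 genes were called with dabigatran (1584 higher and 924 lower) and 159 with aPC (17 higher and 142 lower). Both contrasts share the sham libraries, so they are given side by side only. The aPC mean was closer to the sham mean than the dabigatran mean was in 73.9% of genes called higher with aPC and 75.3% of genes called lower, beside 62.1% of all tested genes. Closer did not mean within the sham range: the aPC mean lay above all sham libraries in 946 of the 1247 genes called higher and below all of them in 924 of the 1666 called lower, and within their range in 261 and 468. Spearman correlations with the sham libraries ran from 0.977 to 0.988 for aPC and from 0.939 to 0.97 for dabigatran. Against the rivaroxaban pair, aPC had 208 called genes (28 higher, which is 0.207%, and 180 lower, 1.33%); 4 of 19 resident macrophage markers were called higher and 0 lower. Among 19 neutrophil markers 16 were called higher than sham with dabigatran and 0 with aPC, where 11.7% and 0.126% of all tested genes were. The list's medians were 3.56 and 0.72. Among 30 ribosome biogenesis genes 25 were called higher than sham with dabigatran and 0 with aPC. In the smooth muscle and matrix lists the aPC median lay further from sham than the dabigatran median, at -0.88 against -0.24 and at -0.51 against 0.34. In some other lists it also did, and in several of these it lay above sham. Among those were the tricarboxylic acid cycle (0.33 against -0.31), respiratory chain (0.33 against -0.29) and resident macrophage lists (0.23 against -0.11).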

How the data were processed

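RNA-seq of mouse heart tissue was deposited as 1 table of log2 CPM for 16658 annotated genes in 11 libraries, which the authors had scaled by TMM, per the name of the deposited table. The tools named, per the submitters' processing notes, are STAR, Trim Galore, FastQC, bcl2fastq and edgeR, with the mm10 build. The read counter, strand setting and annotation were not given in the sources used here. Read numbers were recovered from the steps between low values (100% of values within 0.05 of a whole read, up to 1000 reads), which gave the depths stated above and served voom as an alternative. Genes at 0 log2 CPM or more in at least 3 libraries were fitted with limma 3.58.1 (trend, R 4.3.3, statmod 1.5.0), with 1 mean for each of 5 groups. Fold differences are on the deposited log2 scale, whose small added count understates changes of low genes. The script was tested on simulated data. Library groups came from the labels' treatment, and no batch is labelled.

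Gene names and positions were taken from the table and from GENCODE M21 on mm10. The named genes are the 12 largest rises and falls, up to 6 members with the smallest p in each list described, and a fixed set that includes Il1b, Tnf, Nppa and Col1a1; of these, 136 with the additions noted are given in the text, and some are not reported here. Members and lists were chosen with earlier results of these data known. Some genes belong to several lists, among them F10, Il1r2, Mmp9, Gdf15 and Tnni3, so the counts of different lists are not separate results. Alternatives were other filters, pseudocounts, scalings, library weights, voom, fewer groups and leaving out each library. Promoters came from RefSeq (GRCm38.p6, the mm10 sequence). Without a stated strand setting, reads of genes with an exon overlapping another on the opposite strand cannot be told apart, which touches Acsm5, Adam8, Adamts4, Anxa2, Armc2, Atp2a2, Bhlhe40, Bhlhe41, Bnip3, Ccnd1, Cd37, Ckm, Col4a1, Col4a2, Cox5a, Egfl7, Etfdh, Fn1, Fosl1, Gm42418, Hspa1a, Il1b, Junb, Kcnj3, Ltbp2, Mybbp1a, Myh6, Ndufs1, Nos3, Notch3, Nppa, Pdha1, Pi16, Psme1, Slc2a1, Sphk1, Tgfb2, Thbs1, Tnc, Ubxn10 and Xirp2. Genes with near-identical copies or pseudogenes are uncertain in the same way.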

Additional observations from a re-analysis of the deposited data

How the results depend on the processing

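The number of called genes, 2913, was 2964 with no filter, 2662 with a filter of 2 log2 CPM, 3156 after centring, 3026 after quantile normalization, 3157 on totals without ribosomal RNA overlapping genes, 2708 with the 4 libraries alone, 3468 with library weights and 2738 by voom. Without the untreated group it was 4710 (2045 higher and 2665 lower). Higher calls were 1913 after centring and 692 on those totals. Leaving out 1 library gave from 871 to 4714 calls, from 345 to 2047 higher and from 526 to 2667 lower. Leaving out 1 library, the counts of called members ran from 7 to 14 for neutrophil markers, from 6 to 15 for monocyte and recruited macrophage markers, from 5 to 21 for immediate-early genes, from 3 to 10 for cardiac stress and fetal genes, from 19 to 24 for fatty acid uptake and oxidation genes, from 5 to 22 for tricarboxylic acid cycle genes, from 6 to 66 for nuclear-encoded respiratory chain genes, from 6 to 27 for ribosome biogenesis genes, from 8 to 16 for matrix and fibrosis genes, from 5 to 7 for coagulation and fibrinolysis genes. The respiratory chain count was 30 in the fit of the 4 libraries alone. F2r changed sign to -0.08 on totals without ribosomal RNA overlapping genes and ran from -0.07 to 0.23 when 1 library was left out. Adgre1 changed to 0.07 after centring, 0.03 after quantile normalization and ran from -0.25 to 0.11 when 1 library was left out, above 0 without aPC-791 and without Dabi-204 (0.01). Col1a1 ran from -0.92 to 0.61, with 0.26 without aPC-791 and 0.61 without Dabi-204. Myh6 was at -0.52 after quantile normalization. None of these 4 was called, and the cause of each change was not tested. Gm42418 lost its call after quantile normalization (adjusted p = 0.172). No paired analysis was possible because the groups share no replicate numbers. With 2 libraries in each compared group, precision rests on the spread pooled over all groups rather than on depth.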

Other observations

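Several further gene groups were compared between aPC and dabigatran, where 9.21% of all tested genes were called higher and 12.3% lower. Of 26 interferon-stimulated genes 1 was called higher (Ifi27l2a) and 1 lower (Oas3), with a median difference of 0.22. Of 36 proteasome genes 1 was called higher (Psme1, of the immune-type activator) and 0 lower, and the median of 0.10 was -0.06 on totals without ribosomal RNA overlapping genes. Of 17 circadian clock genes 2 were called higher, among them the output factor Hlf, and 2 lower, the repressors Bhlhe40 and Bhlhe41. Of 30 cell cycle genes Cenpf was called higher and Ccnd1 and Mcm3 lower. Among 15 replication-dependent histone genes 2 were called higher, Hist1h2bc and Hist1h2bg, and 0 lower. Apart from Cenpf, these genes were chosen after their values were seen, as were those that follow.

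Some small counts held members not yet named. Of the complement and acute phase genes, C1qa, C1qc, C1ra and Serping1 were among those called higher. Cfp, C3ar1, C5ar1 and Hp were called lower, and a split by role was not tested. The higher Nrf2 targets beside Sod2 were Gsta4, Cat, Sod1 and Gpx3, and the lower ones beside Gsr and Slc7a11 were Txnrd1, Pgd and Osgin1. Vsig4 was the remaining resident macrophage marker called higher. Egfl7, Robo4 and Nos3 were the remaining endothelial markers called lower, and Cd36 was called higher. Of 280 tested long intergenic RNAs 25 were called higher and 24 lower, and of 187 antisense RNAs 12 and 9.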
